A study of Rattus norvegicus with 16 samples.

Results

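Of 16 epididymal fat pads from male rats, 3 carried high levels of Lcn5, a lipocalin that the epithelium of the epididymis secretes; the transcripts that set these 3 pads apart from the other 13 are described here. The 3 pads were selected on measured values: they are the arrays on which the log2 signal of the Lcn5 probe, taken relative to the array's 75th percentile over spots that are not controls, lay above 0. They were HF 8, HFT 23 and HFT 28, so 1 of the 8 animals of one maternal group and 2 of the 8 of the other were among them. Because the arrays were chosen on their own expression values, all differences between the 3 arrays and the other 13 are given as a description with no test.

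The series measured total RNA of epididymal white adipose tissue from male offspring killed at 30 days of age in the fed state. All dams ate a high-fat diet through pregnancy and lactation, and the pups were kept on that diet after weaning on day 21. The dams of the HF group received a vehicle of low-fat condensed milk, and those of the HFT group 25 mg per kg body weight of the extract GSPE each day in the same milk, with litters set to 10 pups. Each animal had its own 1-colour Agilent array, and arrays are named by group and animal number. The labels do not say which animals were littermates, so p-values between the groups measure only the spread between these animals.

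The epididymal fat pad lies against the epididymis, the coiled duct in which sperm mature. Sperm and testicular fluid reach that duct through the efferent ducts, whose epithelium holds cells with motile cilia that stir the fluid and absorptive cells that take up protein, salt and water. Principal cells of the epididymal duct secrete lipocalins, beta-defensins and protease inhibitors in patterns that differ from one region of the duct to the next.

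The 3 arrays had a slightly larger share of detected probes than any other, and HFT 28 was the brightest array. The share of probes well above background was 73.0% to 73.4% on the 3 arrays and 68.3% to 72.0% on the others. The 75th percentile of the signal was 790, 1026 and 1366 on HF 8, HFT 23 and HFT 28 and ran from 753 to 1110 on the others. HF 8 and HFT 23 shared slide 1, at positions 1 and 4, and HFT 28 was on slide 3 at position 4. On every slide HF animals took positions 1 and 2 and HFT animals positions 3 and 4, so position and maternal group cannot be told apart. The number of arrays, not a read depth, limits the precision, and no spot was saturated.

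Lcn5 chose the arrays, and the other 4 markers of duct epithelium, which came with the rule, were higher on all 3 of them. The markers were chosen with earlier results of these data known, so their agreement with Lcn5 is a description and no further evidence. Lcn5 read 4.12 on HF 8, 3.42 on HFT 23 and 4.12 on HFT 28, and on the others it ran from -6.23 to -2.71 with a median of -5.29. The gap on either side of 0 was wide: the nearest arrays outside the selection were HFT 27 at -2.71 and HF 10 at -3.48. Ptgds, the prostaglandin D2 synthase of the lipocalin family, read 4.65, 4.27 and 5.14 on the 3 arrays and -5.46 to -0.94 on the others, a mean difference of 9.11. Lcn10, a neighbour of Lcn5, read 1.72, 2.11 and 1.67 against -6.30 to -4.29, a difference of 7.48. Lcn5 could not overlap between the selected and the other arrays because it chose them, and Ptgds and Lcn10 did not overlap either. Slc3a1, the heavy chain of the cystine and basic amino acid transporter, read 2.11, 1.53 and 2.40 against -5.39 to -3.04, a difference of 6.91. Adgrg2, an adhesion receptor needed for fluid uptake in the efferent ducts, read 3.79, 3.18 and 3.92 against -1.71 to -0.30, a difference of 4.95. HFT 27 was the highest of the other arrays for all 5 markers.

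**Figure D1:**
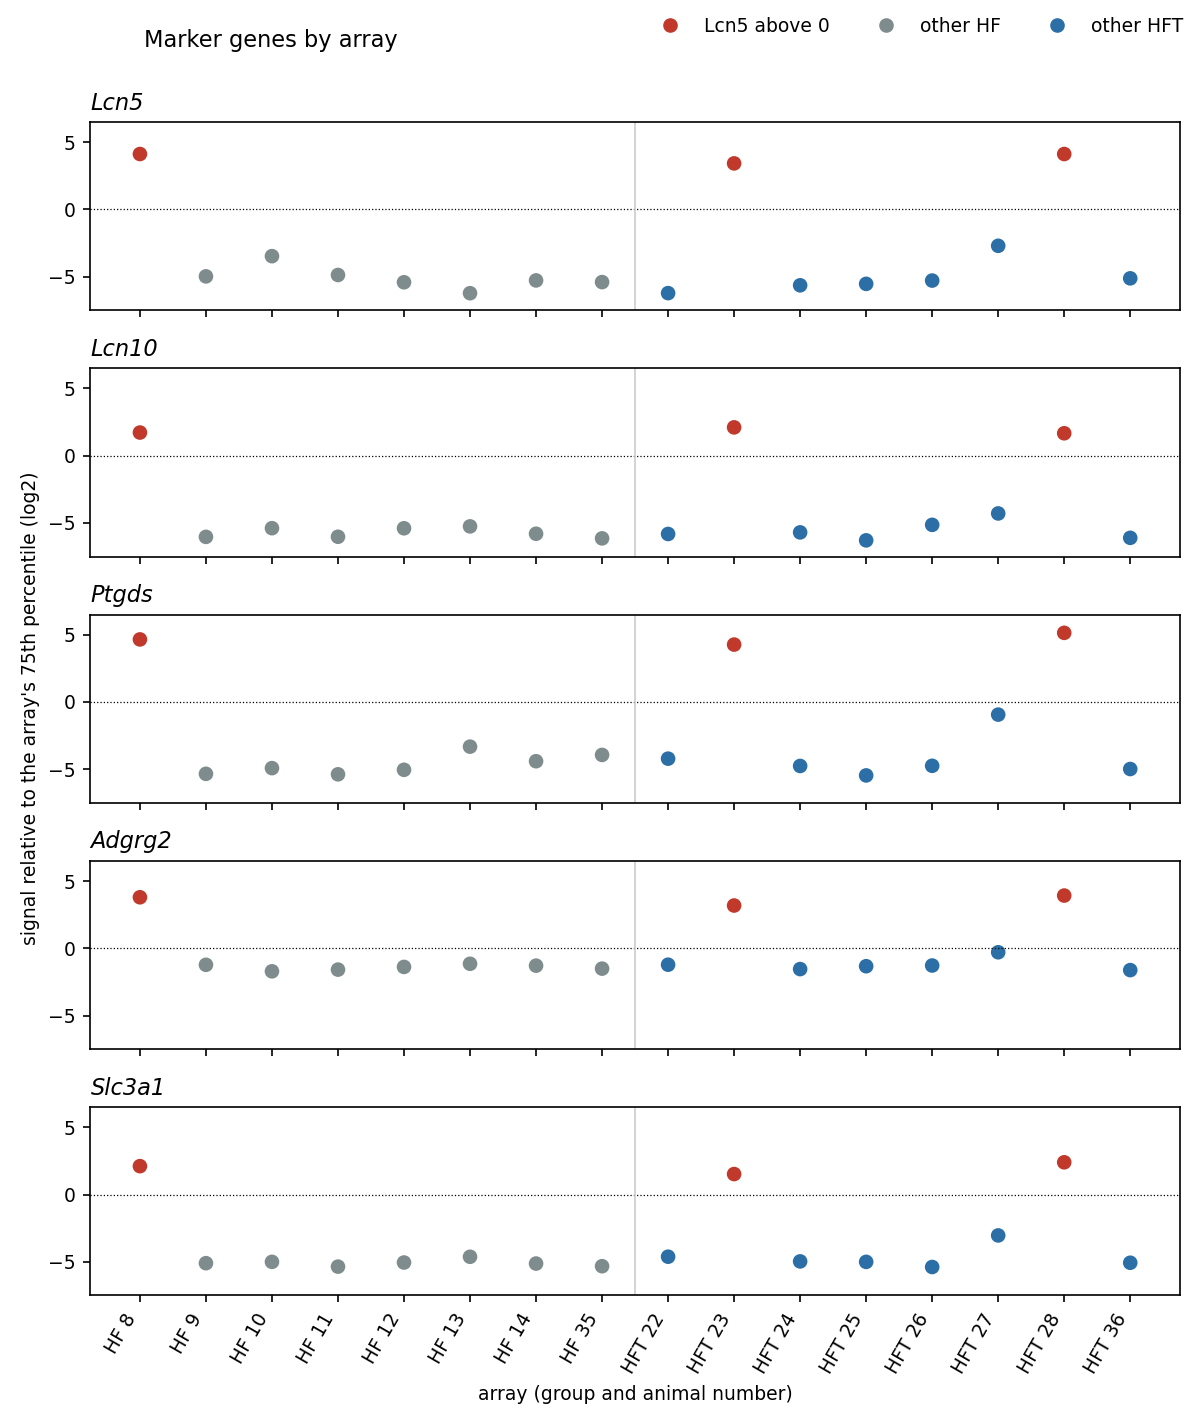
Signal of the 5 marker genes on each of the 16 arrays, as log2 relative to the array's 75th percentile. Each point is 1 animal, with the HF group on the left and the HFT group on the right. HF 8, HFT 23 and HFT 28, chosen on Lcn5, lie above every other array in all 5 panels, and HFT 27 is the next highest.

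Across the array, differences of at least 1 log2 unit were mostly higher on the 3 arrays, while small differences ran both ways. A probe was considered where it was well above background on all 3 selected arrays or on at least 7 of the other 13, which 21970 of 30344 probes were. It was called apart where all 3 arrays lay on one side of all 13 others and the means differed by at least 1 log2 unit. By that rule 1100 probes, or 5.01%, were higher on the 3 arrays and 36, or 0.164%, were lower. Without the size threshold, 1496 probes (6.81%) were higher and 1089 (4.96%) lower on all 3 arrays than on all 13 others. Scaling to the median in place of the 75th percentile gave 954 higher and 108 lower calls, and quantile normalization 941 and 134. In genes, counting the brightest probe of each, 642 of 11701 were higher (5.49%) and 21 lower (0.179%). Among the 1100 higher probes, 705 differed by at least 2 log2 units and 283 by at least 4. Of all probes considered, 792 entered only because the 3 selected arrays detected them, a route that favours a higher call. Of the 1100 higher probes, 477 entered in that way, and 186 were well above background on no other array. Another 497 were well above background on all 13 other arrays as well. In bulk tissue, fewer cells of a type and less RNA per cell cannot be told apart.

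**Figure D2:**
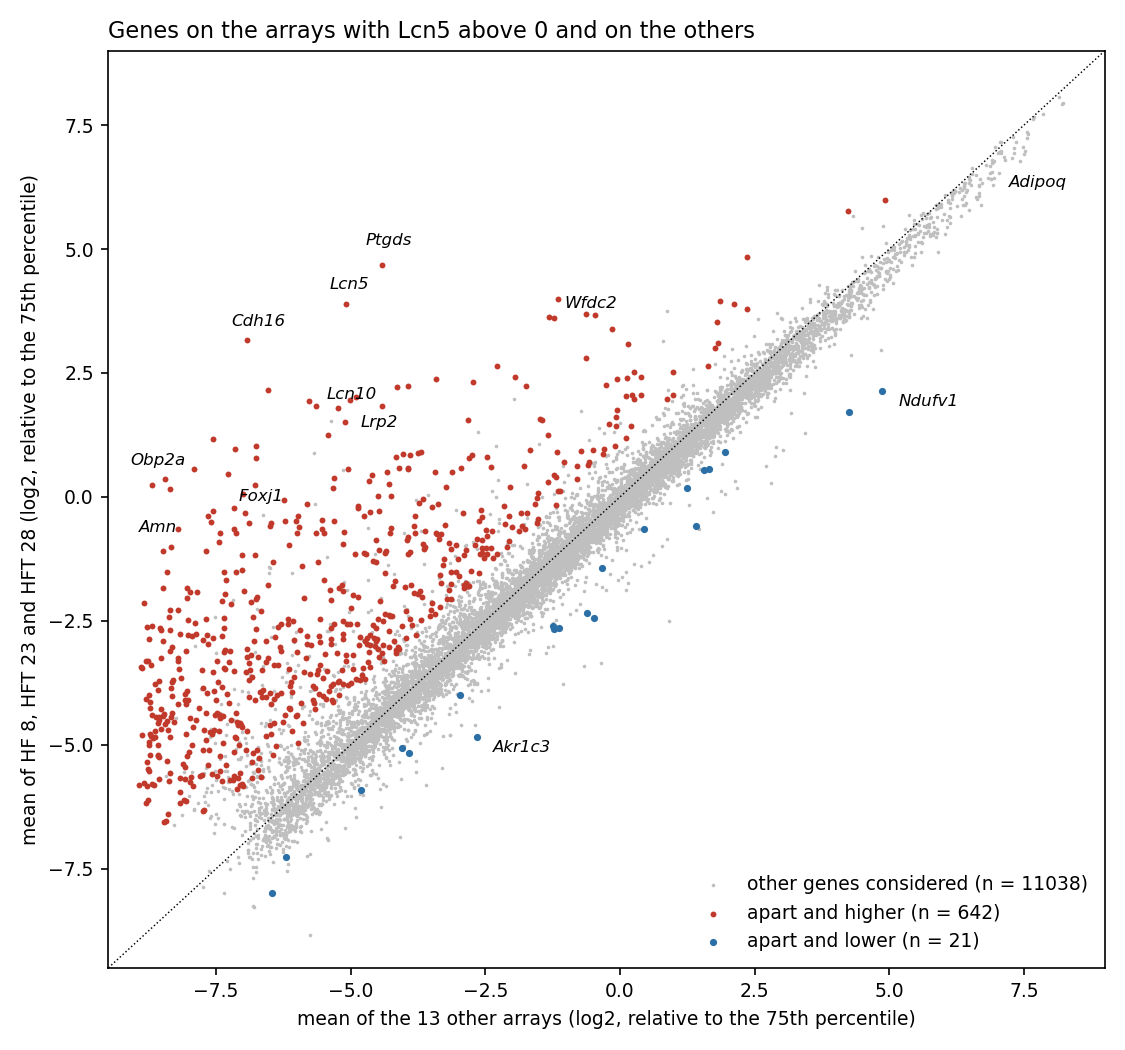
Mean log2 signal of each gene considered on HF 8, HFT 23 and HFT 28 (vertical axis) against its mean on the 13 other arrays (horizontal axis), relative to the 75th percentile. Red points are the 642 genes called apart and higher, blue points the 21 called apart and lower. The red points include genes at background on the other arrays and genes detected on all of them.

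The lipocalin genes were arranged as neighbours. In RefSeq gene order on rat chromosome 3, among genes that were considered, Lcn5, Lcn6, Lcn10, Obp2a, Bmyc and Kcnt1 followed one another and all 6 were called apart and higher. This was the longest such run; there were 63 runs of at least 2 genes and 6 of at least 3. Obp2a, a lipocalin that binds odorants, read 0.60, -0.53 and 0.64 and was well above background on none of the other 13 arrays, which makes it at least 248-fold higher. Lcn6 read -4.68, -5.52 and -3.96 and was likewise undetected elsewhere, at least 6.39-fold higher. Bmyc, a relative of the transcription factor Myc, was detected on every array and read 2.21, 1.51 and 2.43 against -0.16 to 0.48. Ptgds, also on chromosome 3 but outside this run, was called apart and higher too, with a difference of 9.11. Several other genes of the same stretch were not called apart. Lcn8, on the other side of Lcn5, read -6.57, -6.86 and -5.44, was well above background on only 2 of the 3 arrays and on none of the others. Fcna, Lcn12, Paep and Obp2b did not separate the arrays, with Paep and Obp2b at background on all 16. Lcn2, an iron-trapping lipocalin coded elsewhere, read 3.07, 2.5 and 3.66 against -0.47 to 0.77. In all, 5 of the 11 lipocalins considered were called apart and higher, where 5.49% of all genes considered were. The list median was 1.93 and the median over all genes considered was -0.10.

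The starts of Lcn5, Lcn6 and Lcn10 are shown because these neighbours were high together, from 250 bases before to 50 after the RefSeq start on build GRCr8. They lie on the plus strand at chr3:28871073-28871372, chr3:28881883-28882182 and chr3:28888651-28888950. Capitals mark AGAACA or its reverse complement TGTTCT, a half-site that several steroid receptors recognise, searched on both strands.
Lcn5: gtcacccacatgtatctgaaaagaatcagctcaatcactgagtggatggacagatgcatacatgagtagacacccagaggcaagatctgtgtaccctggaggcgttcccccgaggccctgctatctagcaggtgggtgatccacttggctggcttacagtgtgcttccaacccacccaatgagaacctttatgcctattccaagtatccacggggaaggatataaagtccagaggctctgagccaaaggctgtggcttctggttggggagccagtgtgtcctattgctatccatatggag
Lcn6: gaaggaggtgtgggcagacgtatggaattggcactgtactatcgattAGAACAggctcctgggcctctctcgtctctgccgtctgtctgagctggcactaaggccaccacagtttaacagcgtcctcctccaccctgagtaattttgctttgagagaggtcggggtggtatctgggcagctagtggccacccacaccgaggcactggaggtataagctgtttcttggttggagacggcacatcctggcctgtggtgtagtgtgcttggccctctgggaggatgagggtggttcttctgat
Lcn10: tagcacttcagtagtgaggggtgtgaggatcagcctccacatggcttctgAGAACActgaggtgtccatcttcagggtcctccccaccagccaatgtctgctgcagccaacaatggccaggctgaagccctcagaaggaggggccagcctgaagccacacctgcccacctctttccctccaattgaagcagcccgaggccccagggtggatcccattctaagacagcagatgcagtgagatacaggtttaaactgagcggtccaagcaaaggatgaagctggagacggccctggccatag
The half-site occurred in the windows of Lcn6 and Lcn10 and not in that of Lcn5. It is a short motif, present in 20.7% of all 33469 windows in the RefSeq table and in 13.6% of those of the genes considered, so a match is a description of the letters only.

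Other secreted proteins of the duct split into a detected and an undetected set. Of 66 such genes with a probe, 38 were considered, and 20 were well above background on none of the 3 arrays. Of the 38, 10 were called apart and higher, where 5.49% of all genes considered were. Of the 38, 10 entered through the selected arrays alone. Wfdc2, a WAP-domain protein of epididymal secretion, read 3.61, 3.11 and 4.09 against -1.97 to 0.38. Defb29, a beta-defensin, read 0.75, -0.60 and 0.98 against -5.79 to -3.35. Both were detected on all 16 arrays and called apart, so by construction neither overlapped. Defb105b, another beta-defensin, read -3.26, -3.65 and -2.84, and Eppin, a protease inhibitor of the sperm surface, -4.25, -5.40 and -3.92, with Eppin at background on all other arrays. Beta-defensins form a family of similar genes, and a probe may bind more than 1 of them. Broadly expressed secreted proteins were not called apart: Clu, a chaperone, read 2.88, 2.89 and 3.02 against 2.26 to 2.78, a difference of 0.38, and Cst3, a cystatin, overlapped at 5.61, 5.42 and 5.51 against 5.25 to 5.57.

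The label of epididymal epithelium held only in part when genes of named duct regions were read. Of 12 genes of the initial segment and caput that have a probe, 7 were well above background on none of the 3 arrays. Cst8 and Cst11, cystatins of the proximal duct, and Rnase9, a ribonuclease of the proximal duct, were at background on all 16 arrays. Ros1, the receptor kinase of the initial segment, read -8.78, -8.93 and -9.09 on the 3 arrays and was above background only on HF 9. Gpx5, a secreted peroxidase of the caput, read -8.40, -6.44 and -4.52, above background on HFT 23 and HFT 28 only. Genes of the distal duct were higher on HF 9 than on any selected array: Ces5a, a secreted esterase, read 1.89, 0.61 and 2.08 on the 3 arrays and 3.68 on HF 9. Hoxa11, a positional transcription factor, was at background on the 3 arrays and read 0.95 on HF 9. The 3 pads are therefore called by their leading gene, Lcn5, in what follows.

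Machinery for taking up filtered protein was among the strongest differences. Lrp2, the endocytic receptor megalin, read 1.65, 1.07 and 1.79 on the Lcn5-high arrays and -6.56 to -2.35 on the others, a mean difference of 6.62. Its second probe differed by 7.26. Cubn, the partner receptor cubilin, read 0.84, 0.72 and 0.96 against -4.67 to -3.12. Amn, which carries cubilin to the cell surface, read -0.90, -1.15 and -0.96 and was well above background on no other array, at least 102-fold higher. These 3 genes were even across the Lcn5-high arrays, with an SD of 0.38 for Lrp2, 0.12 for Cubn and 0.13 for Amn (n = 3), where that of Lcn5 was 0.40. Folr1, the folate receptor, read 2.03, 1.82 and 2.86 against -4.66 to -2.35. Pdzk1, a scaffold for transporters under the brush border, read 1.12, 0.15 and 1.82 against -8.02 to -3.37, and was well above background on 7 of the 13. Cdhr5, a cadherin that links microvilli, read 1.99, 1.43 and 1.99 against -6.21 to -3.27. Tinag, an extracellular matrix protein of renal tubules, was at background on the other arrays and at least 71.5-fold higher. Of 14 such genes, in a list drawn up after values had been seen, 8 were called apart and higher, where 5.49% of all genes considered were. Through the selected arrays alone entered 2 of the 14. Dab2, the adaptor of megalin, was not called, at 2.31, 1.92 and 2.30 against 0.94 to 1.75. That gene does not overlap between the sides but differs by only 0.95.

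Membrane transport genes gave 12 of 37 considered as apart and higher, where 5.49% of all genes considered were. Of the 37, 3 entered through the selected arrays alone. Atp1b1, a beta subunit of the sodium pump, read 3.57, 3.32 and 4.16 against -1.39 to 1.0. Aqp9, a water and glycerol channel of the efferent and epididymal ducts, read 1.88, 1.59 and 2.05 against -6.51 to 0.62, the upper value being that of HF 9. Cftr, the chloride channel, read -0.78, -0.81 and 0.02 against -7.79 to -5.37, with 4 of the 13 others above background. Slc7a9, the light chain that pairs with Slc3a1, read 1.18, 0.52 and 0.96 against -4.53 to -2.71. Slc30a2, a zinc exporter, read -0.31, -0.94 and 0.39 against -9.04 to -4.87. These genes were named because they were called apart, so by construction none overlapped between the selected and the other arrays. Solute carriers as a family, counted by symbol after values were seen, gave 33 of 256 apart and higher (12.9%) and 2 lower, with a family median of -0.06.

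Genes of motile cilia were high on all 3 Lcn5-high arrays, though unevenly. Foxj1, the transcription factor that switches on the motile cilium programme, read 0.78, -0.66 and 1.28 on the Lcn5-high arrays and -8.40 to -3.98 on the others, of which 3 were above background. Dynlrb2, a dynein light chain, read 0.51, -0.69 and 0.88 against -9.0 to -3.82. Sntn, sentan of the ciliary tip, read -0.12, -1.35 and 0.28 against -8.85 to -4.23. In each of these genes HFT 23 was the lowest of the 3 and HFT 27 the highest of the others. Rsph10b, of the radial spokes, read 0.95, -0.59 and 1.32 against -6.26 to -3.17. Tekt1 and Tekt2, tektins of the axoneme, read -2.60, -3.77 and -1.92 against -9.18 to -6.49, and -1.09, -2.32 and -0.54 against -7.48 to -4.40. Of 15 listed ciliated-cell genes 10 have a probe and 9 were called apart and higher, where 5.49% of all genes considered were. Through the selected arrays alone entered 7 of the 9. Over the whole array, 477 of the 792 probes that entered in that way were called higher. The tenth, Spag6, was at background on all 16 arrays. In a wider set picked by symbol after values were seen, 50 of 76 genes considered were called apart and higher. Of that set 28 entered through the selected arrays alone, and another 6 of the 83 with a probe were at background on every array. It held 13 of 20 Cfap genes and 12 of 18 axonemal dynein and assembly genes.

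Cilium genes are often bound by RFX factors, whose half-site is GTTGCC, reverse complement GGCAAC. The starts of Tekt2, Sntn and Tekt1 are shown as examples that contain it, with the half-site in capitals; they lie on the minus strand of GRCr8 at chr5:143907675-143907974, chr15:13956041-13956340 and chr10:57479072-57479371.
Tekt2: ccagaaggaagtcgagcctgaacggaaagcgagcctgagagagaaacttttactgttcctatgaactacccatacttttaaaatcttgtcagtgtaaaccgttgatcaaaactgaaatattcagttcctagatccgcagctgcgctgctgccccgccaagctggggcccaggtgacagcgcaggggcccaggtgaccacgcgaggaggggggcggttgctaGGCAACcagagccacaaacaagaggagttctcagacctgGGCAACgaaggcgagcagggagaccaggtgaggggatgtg
Sntn: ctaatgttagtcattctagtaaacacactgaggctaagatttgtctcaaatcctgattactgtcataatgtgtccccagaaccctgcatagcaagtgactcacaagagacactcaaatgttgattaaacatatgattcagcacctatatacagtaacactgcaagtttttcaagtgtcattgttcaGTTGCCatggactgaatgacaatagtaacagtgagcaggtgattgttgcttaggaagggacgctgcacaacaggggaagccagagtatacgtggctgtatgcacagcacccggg
Tekt1: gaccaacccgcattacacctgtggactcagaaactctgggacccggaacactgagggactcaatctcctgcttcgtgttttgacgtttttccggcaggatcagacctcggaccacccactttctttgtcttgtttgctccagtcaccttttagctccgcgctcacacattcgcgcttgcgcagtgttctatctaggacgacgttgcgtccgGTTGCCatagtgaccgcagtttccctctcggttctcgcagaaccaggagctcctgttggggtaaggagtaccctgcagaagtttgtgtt
The half-site occurred in 13 of 45 windows of the cilium genes called apart and higher (28.9%), in 18.4% of the windows of all genes called apart and higher and in 12.2% of all windows. No test was made of these shares.

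A few transcription factors of the urogenital ducts were apart, most of them at low levels. Pax8, a paired-box factor of kidney and duct development, read 0.12, -0.81 and 0.27 against -7.42 to -3.09. Lhx1, a LIM homeobox factor of kidney and duct development, read -4.31, -4.60 and -3.89 and was above background on 1 of the other 13 arrays. Sall1, a zinc-finger factor of kidney development, was above background on no other array and at least 21.2-fold higher. Esr1, the oestrogen receptor that controls fluid uptake in the efferent ducts, read -3.27, -3.80 and -2.37 against -6.10 to -3.88. Of 25 such genes considered, 3 of them through the selected arrays alone, 6 were called apart and higher and none lower. Over all genes considered, 5.49% were called higher. Among 10 genes of androgen metabolism and response only Fkbp5, a cochaperone of steroid receptors, was called, at 1.07, 0.57 and 0.96 against -0.83 to 0.49.

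General epithelial genes were high on the Lcn5-high arrays but not on those alone. Cdh16, kidney-specific cadherin, read 3.14, 2.61 and 3.72 against -8.87 to -1.65, and only 4 of the 13 others were above background. Epcam, an epithelial adhesion molecule, read 0.85, 0.34 and 1.46 on the 3 arrays, but HFT 24 read 0.79, so the sides overlapped. The same held for Cdh1, E-cadherin, at 0.39, 0.25 and 0.99 with HFT 24 at 0.66. Only 6 of 23 epithelial genes considered were called apart and higher, where 5.49% of all genes considered were. Of the 23, 6 entered through the selected arrays alone. Uroplakins were high on some of the arrays that overlapped: for 4 uroplakin genes of the bladder lining, HFT 22 exceeded the middle of all arrays by 8.17, HFT 24 by 9.62 and HF 35 by 9.52 log2 units. HF 9 was high for smooth muscle genes, with a list score of 4.17. The part of these arrays' other transcripts in the overlap was not tested. On the Lcn5-high arrays 0 of 4 urothelial genes considered were apart, with a list median of -1.65, and 0 of 5 basal-cell genes, with a median of -0.94. By array, the basal-cell score was 0.21 on HF 8, 0.07 on HFT 23 and -0.33 on HFT 28, within the -0.36 to 4.8 of the others. Without the 3 uroplakin-high arrays these medians were -0.79 and -0.04. Markers of clear and narrow cells, the acid-secreting cells of the duct, gave 1 of 4 considered, and another 4 of the 8 with a probe were at background on all arrays.

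**Figure D3:**
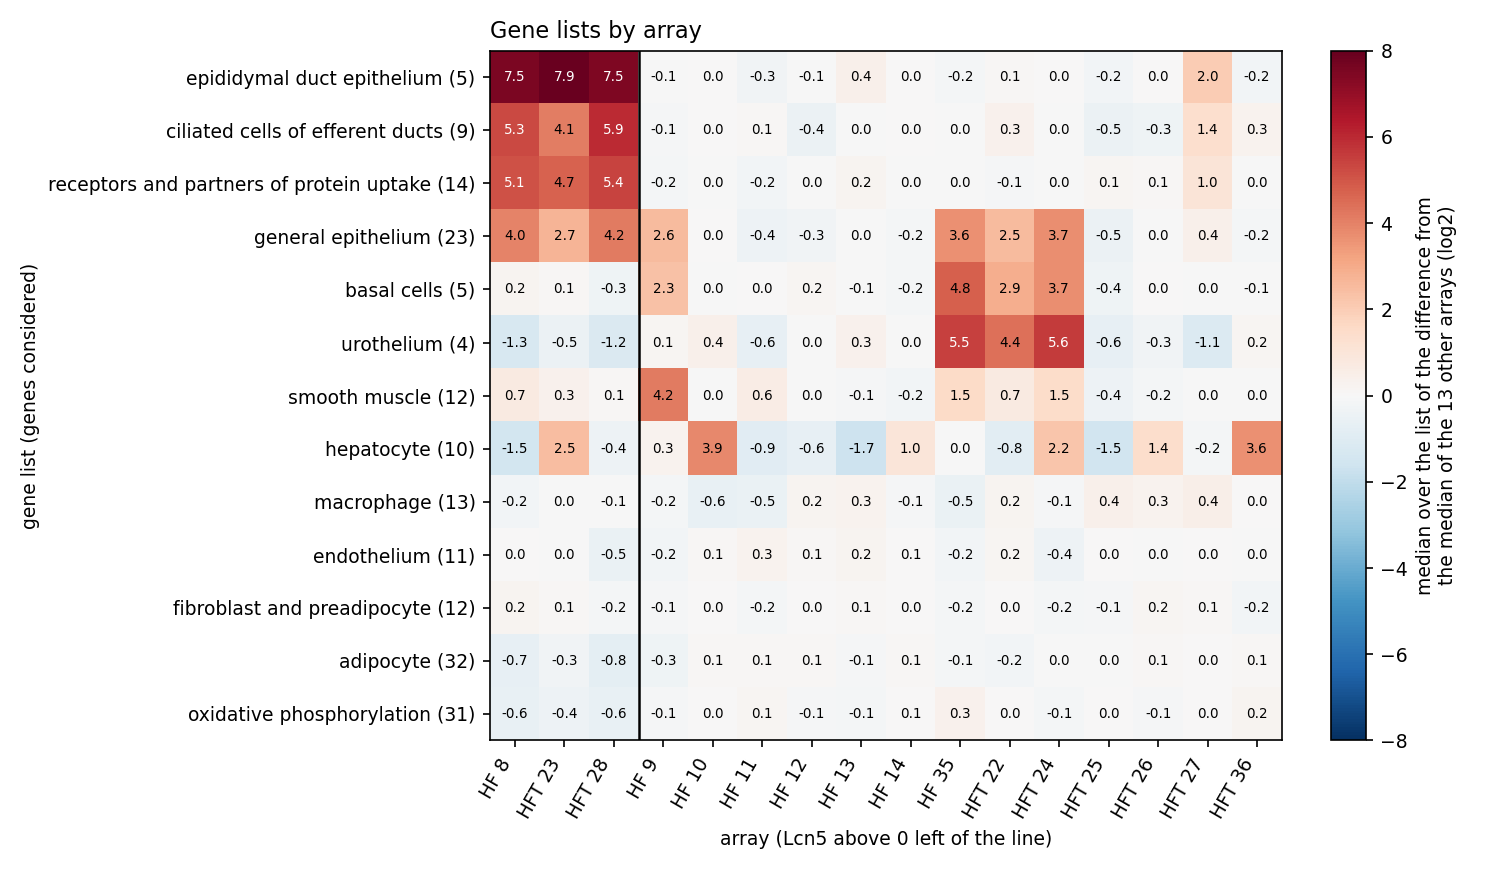
Score of 13 gene lists on each array, as the median over the list's genes of the log2 difference from the median of the 13 other arrays. The number of genes is in brackets, and the first row includes Lcn5, which chose the arrays. The top 3 rows are high on HF 8, HFT 23 and HFT 28 and next on HFT 27, while general epithelial genes are also high on HF 9, HF 35, HFT 22 and HFT 24.

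Lists of other cell types held few or no genes called apart. Macrophage, endothelial, fibroblast and smooth muscle lists had 0 genes called apart out of 13, 11, 12 and 12 considered. Over all genes considered 5.49% were called higher, so 0 calls in lists this short says little either way. The hepatocyte list scored -1.48 on HF 8, 2.48 on HFT 23 and -0.40 on HFT 28, and from -1.65 to 3.86 on the others, with HF 10, HFT 36, HFT 23 and HFT 24 the highest in that order. Of 14 sperm and spermatid genes, 7 were well above background on none of the 3 arrays, and 0 of the 5 considered were called apart. Lymphocyte genes gave 1 of 9, Cd8a, which read -3.54, -3.90 and -2.48 against -8.63 to -6.36; Cd4 and Cd8b overlapped between the sides. Of 8 genes of Leydig and Sertoli cells considered, 1 was called apart and higher and 5 lay below 0, with a list median of -0.32. That gene was Cyp17a1, a steroid enzyme of Leydig cells, which read -2.46, -2.60 and -2.34 against -6.62 to -4.39, whereas Star, which delivers cholesterol for steroid synthesis, was lower at -4.21, -2.84 and -3.59 with overlap. The part of these cell types in the results was not tested.

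Several genes best known from the kidney were also apart. Umod, uromodulin of the thick ascending limb, was detected on all 16 arrays and read -0.95, -2.85 and -0.37 against -6.52 to -4.88. Slc34a1, the phosphate transporter of the proximal tubule, read -3.54, -3.37 and -3.43 and was above background on no other array, at least 19.3-fold higher. Kap, an androgen-regulated kidney protein, read -5.31, -4.30 and -4.95, at least 6.91-fold higher. In this list, drawn up after values were seen, 6 of 13 genes considered were called apart and higher, where 5.49% of all genes considered were. But 6 of the 13 entered through the selected arrays alone, a route that favours a higher call. Nphs1, a protein of the glomerular filter, and Calb1, of the distal tubule, were well above background on none of the 3 arrays.

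Some of the other runs of at least 3 neighbouring genes held members of a gene family, in part beside genes outside it. On chromosome 2, Eps8l3 was followed by Gstm5, Gstm6l, Gstm7 and Gstm6, glutathione S-transferases of the mu class. Gstm7 read 2.69, 1.88 and 3.35 against -3.27 to -1.65 and Gstm5 1.41, 0.83 and 2.41 against -1.84 to -1.04. Both were detected on all 16 arrays and HFT 23 was the lowest of the 3 for each. On chromosome 15, the granzyme genes Gzmn, Gzmf, Gzmc and Gzmb, serine proteases of killer lymphocytes, formed a run of 4. Gzmc read -0.39, -1.90 and -0.44 against -8.87 to -2.58, and Gzmb -3.89, -5.71 and -4.00 against -8.17 to -5.75. Tgm2, a transglutaminase, opened a run with Bpi and Lbp, which bind bacterial lipopolysaccharide. Tgm2 was abundant on every array and read 5.12, 4.44 and 4.96 against 1.97 to 2.62. Members of the Gstm and granzyme families are close copies of one another, so a probe may read more than 1 of them. These runs were noticed after their values were seen.

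Several further genes were among those with the largest difference, of genes detected widely enough for a measured one. Padi2, which converts arginine to citrulline in proteins, read 2.06, 1.38 and 2.38 against -6.66 to -4.19. Gjb2, connexin 26, read 1.91, 1.49 and 2.49 against -5.81 to -2.89. Asgr1, a subunit of the asialoglycoprotein receptor of the liver, read 1.59, 0.72 and 1.46 against -7.36 to -3.27. All were apart by more than 2 log2 units. Fbp1, of gluconeogenesis, read 2.17, 2.18 and 2.78 against -5.18 to -0.71, and Slc44a4, a choline transporter-like protein, 2.48, 1.48 and 2.70 against -5.92 to -0.93. Other genes were detected only on the Lcn5-high arrays. After Obp2a, Amn and Tinag, the largest lower bounds were 47.6-fold for Lrrc19, 39.8-fold for Iqcg (a dynein regulatory protein of cilia), 34.5-fold for Clrn3 and 33.2-fold for Ttll2, a tubulin-modifying enzyme. Gng7, a G protein subunit, and Sstr1, a somatostatin receptor, had bounds of 30.5-fold and 27.8-fold.

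The 3 Lcn5-high arrays differed among themselves by gene group. HFT 28 was the highest of the 3 for 804 of the 1100 probes and HFT 23 the lowest for 939. The shortfall of HFT 23 against the mean of HF 8 and HFT 28 had a median of -0.78 over the 642 genes. It was -1.50 over the 9 ciliated-cell genes, ranging from -1.75 to -1.15, and -0.59 over the 8 genes of protein uptake, ranging from -1.32 to -0.18. All 9 ciliated-cell genes and 1 of the 8 uptake genes fell short by more than 1 log2 unit. Lcn10 went the other way and was 0.41 higher on HFT 23. Umod was among the most uneven, with a shortfall of -2.19. Genes that were highest on HFT 23 included Miox and Nat8, enzymes abundant in kidney cortex, at -4.21, -2.54 and -3.23, and at -2.11, -1.93 and -3.60. Tgfb3, a growth factor, was uneven in another way, reading 2.18 on HF 8 but -0.19 and -0.10 on HFT 23 and HFT 28. With 3 arrays, these differences have no test.

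**Figure D4:**
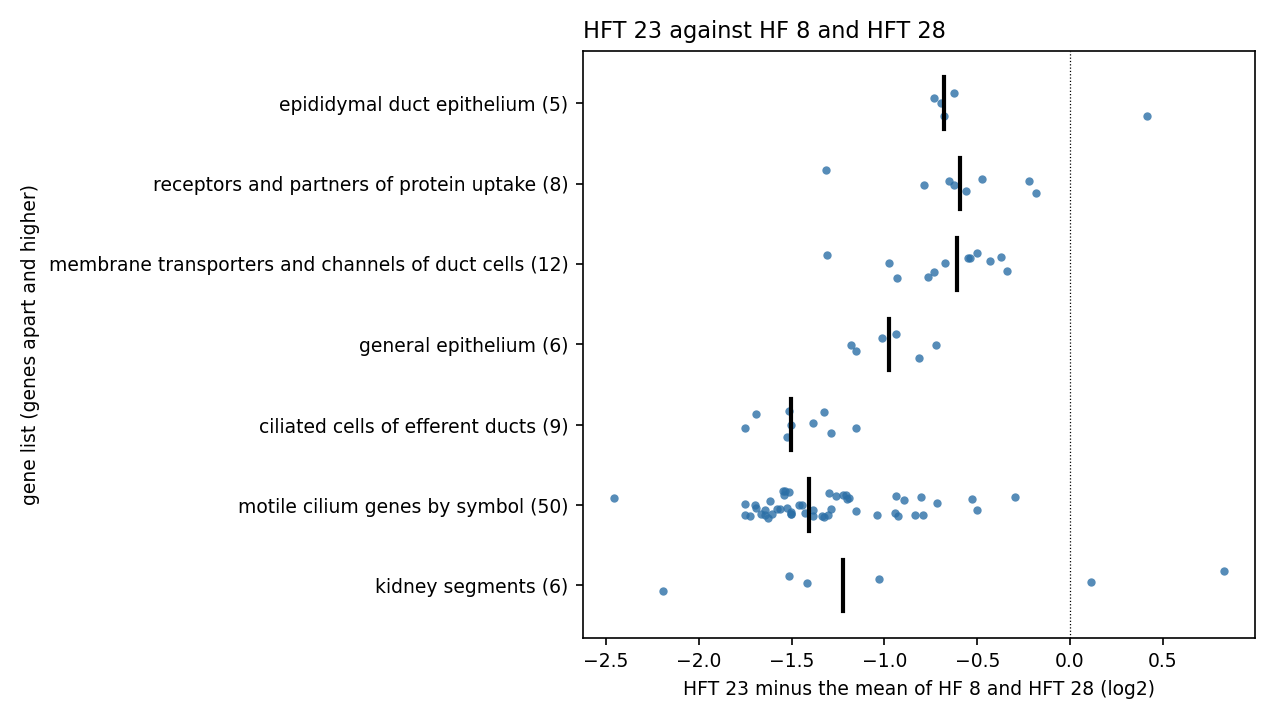
Log2 signal on HFT 23 minus the mean of HF 8 and HFT 28, for genes called apart and higher. Each point is 1 gene, the black bar is the list median and the number of genes is in brackets; the ciliated-cell genes lie at a median of -1.50 and the genes of protein uptake at -0.59.

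HFT 27 and HF 9 held the nearest values among the other arrays. HFT 27 was the highest of the 13 for 273 of the 1100 probes (24.8%) and HF 9 for 226 (20.55%), and each of the other 11 arrays for 20 to 95. The duct marker list is the 5 markers above, Lcn5 included, so its scores on the selected arrays follow in part from the selection. On HFT 27 this list scored 2.01, against 7.53, 7.91 and 7.47 on HF 8, HFT 23 and HFT 28. The ciliated-cell list scored 1.37 on HFT 27, against 5.27, 4.09 and 5.94. The other 12 arrays lay between -0.25 and 0.43 on the duct list and between -0.45 and 0.34 on the ciliated list. HF 9 scored -0.05 and -0.09 on these lists. Its high genes, such as Aqp9, Ces5a and Spink8, were of other lists of duct genes. The distal-duct list, with 2 genes considered, scored 8.56 on HF 9 and 4.82 on HFT 24. On HF 8, HFT 23 and HFT 28 that list scored 5.36, 4.55 and 4.42.

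Few genes were lower by at least 1 log2 unit on the Lcn5-high arrays, and the largest of those rested on 1 array. Ndufv1, a subunit of respiratory complex I, read 4.43 on HF 8 and 4.42 on HFT 23 but -2.43 on HFT 28, against 4.57 to 5.24 on the others; without HFT 28 its difference was -0.44 in place of -2.73. Ndufc2, another subunit of that complex, read 3.76, 3.95 and -2.55 against 4.13 to 4.38, and -0.39 without HFT 28. Of the 36 lower probes, 12 ranged over more than 2 log2 units across the 3 arrays, and all 12 were lowest on HFT 28. Slc25a46, Nkiras2, Mrpl15, Rbm7 and Zfp830 were of this kind and none was called without HFT 28. Akr1c3, an aldo-keto reductase of steroid and prostaglandin metabolism, read -4.70, -5.62 and -4.21 against -4.20 to -1.29, so HFT 28 lay at the edge of the others; its second probe differed by -2.26 but overlapped. Tbx18, a transcription factor of mesenchymal cells, read -2.61, -2.46 and -2.77 against -1.86 to -0.57, though its second probe was at background on every array. Slc36a2, a proton-coupled amino acid transporter of fat, read 0.65, 0.65 and 0.39 against 1.2 to 2.33. Pdk1, which limits pyruvate oxidation, read -1.73, -1.07 and -1.49 against -0.69 to 0.15.

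Genes of fat cells were slightly lower on the Lcn5-high arrays, all 32 considered lying below 0. None was called apart, but only 0.179% of all genes considered were called lower, so this says little. Of the 32, 3 were lower without overlap, where 4.96% of all probes considered were. The list median was -0.59, where the median over all genes considered was -0.10 and 62.1% of those genes lay below 0. Adipoq, adiponectin, read 6.56, 6.77 and 6.31 against 6.63 to 7.23, and Fabp4, the fatty acid carrier, 6.23, 6.61 and 6.43 against 6.34 to 7.38. Pparg, the master regulator of fat cells, read 4.01, 4.08 and 3.76 against 4.12 to 4.85. Of these only Pparg did not overlap, and its difference was -0.52. Lep, leptin, read -1.94, -1.20 and -1.84 within the range of -2.57 to -1.02, and Lipe, hormone-sensitive lipase, 0.96, 0.84 and 0.05 against 0.36 to 1.53. The difference of Lipe, -0.27, changed sign when HFT 28 was left out and when HF animals alone were compared. By array, the adipocyte score was -0.66 on HF 8, -0.28 on HFT 23 and -0.80 on HFT 28, and -0.32 to 0.10 on the others, with HF 9 the lowest of those. Without HFT 28 the list median was -0.43, and without HFT 23 it was -0.77.

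Mitochondrial genes were lower by a similar amount and more evenly. All 31 genes of oxidative phosphorylation lay below 0, and only Ndufv1 differed by as much as 1 log2 unit; the median was -0.53. Of the 31, 25 did not overlap, where 4.96% of all probes considered were lower without overlap. Ndufs1, of complex I, read 1.67, 1.96 and 1.72 against 2.27 to 2.93, and Sdha, of complex II, 3.14, 3.50 and 3.27 against 3.53 to 4.52. Cox4i1, of complex IV, read 6.42, 6.35 and 6.20 against 6.55 to 6.94. These genes did not overlap between the sides. Of 17 fatty acid oxidation genes, 15 lay below 0, with a median of -0.57. Genes of secretion through the endoplasmic reticulum and Golgi had a median of -0.12, near that of all genes, and 1 of 32 was apart. Scaling each array to its median in place of the 75th percentile moved the median over all probes considered from -0.09 to -0.27, and the adipocyte and oxidative phosphorylation medians to -0.76 and -0.70.

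**Figure D5:**
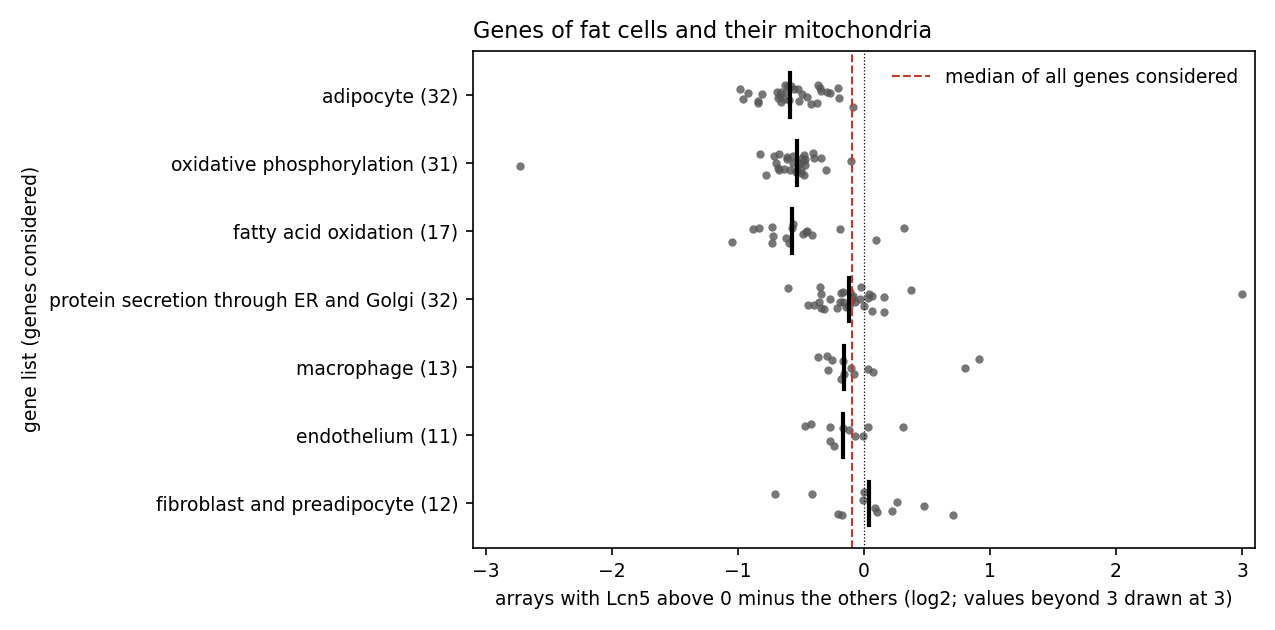
Difference in log2 signal between the Lcn5-high arrays and the 13 others for the genes of 7 lists. Each point is 1 gene, the black bar is the list median, the dashed line is the median of all genes considered at -0.10 and 1 gene beyond 3 is drawn at 3; the adipocyte and mitochondrial lists lie to the left of that line.

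The Lcn5-high arrays fell on both sides of the maternal comparison. In HF 1 of 8 animals and in HFT 2 of 8 had Lcn5 above 0, a split on which a two-sided Fisher's exact test gave p = 1. With 3 such animals no split could give a p below 0.2, so the test could not pass 0.05. Inside each maternal group the difference was of like size: for Lcn5 it was 9.21 within HF and 8.86 within HFT, and 1032 of the 1100 probes were higher by at least 1 log2 unit within both. These within-group values share the arrays that the rule chose and are a description.

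The comparison that the labels define, HFT against HF, did not use the Lcn5 rule and was tested with limma over all 8 animals of each group. No probe of 21808 passed an adjusted p of 0.05 (0.0%), with 515 at an unadjusted p under 0.05. Lcn5 itself differed by 1.07 (SE 1.78, HFT minus HF, limma adjusted p = 1), Ptgds by 1.5 (SE 1.81) and Foxj1 by 1.39 (SE 1.58). Of the 1100 probes called apart and higher, 750 could be tested. They were chosen for high values on 1 HF and 2 HFT arrays, which raises their SE. Few could therefore pass, and no conclusion is drawn from this, nor from Lcn5, Ptgds and Foxj1 above. Of the 750 probes, 0 passed the adjusted threshold and 1 had an unadjusted p under 0.05. Their median difference between the maternal groups was 0.25 with a median SE of 0.48, where over all probes tested the median SE was 0.13. Without the 3 arrays the median difference of those 750 probes was 0.02 and their median SE 0.23. The lone probe called without the 3 arrays (0.00459%) was that of Acot5, an acyl-CoA thioesterase, lower in HFT by a log2 difference of -4.38 (SE 0.49, limma adjusted p = 0.0131), where all 16 arrays gave -2.77 (SE 0.95, limma adjusted p = 1). By its brightest probe, Acot5 was well above background on only 9 of the 13 other arrays. Its difference therefore includes readings at background, and its size is uncertain. With Lcn5 above 0 as a term in the fit, no probe was called and 759 had an unadjusted p under 0.05.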

How the data were processed

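Each of 16 1-colour Agilent arrays held the Cy3 label of 1 animal's epididymal fat RNA, 8 per maternal group. The deposited scanner files give intensity per spot, background-corrected by Agilent Feature Extraction 10.7.3.1 per the file headers. A second deposited table holds log2 values with column medians of 7.33 to 7.36. The labels and headers used here do not state its normalization, and it served as an alternative. From the intensity, log2 of the processed signal minus the array's 75th percentile over spots that are not controls was taken; flagged spots were left out and spots of a probe averaged (62976 spots, 30367 probes, 23 of them without a value on some array).

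Probes were named by accession through RefSeq's gene table (assembly GRCr8), which gave 18005 probes a symbol and left 12362 unnamed, among them 369 of the 1100 higher ones. Each gene is represented by its probe of highest mean signal. A bound ("at least N-fold") sets the mean of the 3 arrays against, on each other array, the higher of the lowest signal well above background and the probe's own.

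The arrays, lists and members were chosen with earlier results of these data known. Named genes were the 5 markers, the 15 widest differences among genes measured on at least 7 other arrays, the 15 largest bounds, the 15 largest lower calls, up to 5 called members per list, members said to be near background, the 10 most uneven over the 3 arrays, and 8 adipocyte genes (Plin1 was not matched). Genes outside this rule were chosen after their values were seen. Some genes that the rule names are not reported here. The maternal groups were compared with limma 3.58.1 in R 4.3.3 (lmFit, eBayes, Benjamini-Hochberg) over 21808 probes well above background on at least 4 arrays of a group; the fit was tested on simulated data. Other steps used Python 3.11.15 with pandas 2.3.3, numpy 2.4.6, scipy 1.17.1 and matplotlib 3.10.9. Alternatives covered background correction, scaling, the deposited table, flagged spots, the filter on dim probes, the size threshold, each maternal group alone, the slide as a block and leaving out arrays.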

Additional observations from a re-analysis of the deposited data

Results flagged for a closer look

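Values are listed here where 1 animal lay far from the other 7 of its maternal group, judged by the gap to its nearest neighbour over the group's range (Dixon's 95% criterion). Chance alone gives about 1 in 20 groups where neither arrays nor genes were chosen on their values. Here HF 8 and HFT 28 were chosen on Lcn5 and the lower genes on being low on these arrays, so their presence below follows in part from that choice and is no further evidence; 13 of 52 groups of list scores and 14 of 30 groups of lower genes met the criterion.

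HF 8, the only HF animal with Lcn5 above 0, lay far from the other HF animals in its score for duct epithelium (7.53), ciliated cells (5.27), lipocalins (2.75), other secreted proteins (1.33), transporters (0.79), sperm and spermatids (0.55) and duct transcription factors (0.33). The same holds by construction for many genes called apart and higher, 56 of the 78 named. In the HFT group, where 2 animals were high, HFT 28 stood apart for lipocalins (2.63) and on the low side for adipocyte genes (-0.80). Other animals stood apart for other tissues: HF 9 for smooth muscle (4.17), HF 10 for hepatocyte genes (3.86), and HF 35 for urothelium (5.48) and androgen-related genes (-0.20).

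Among the lower genes, HFT 28 read far below the other HFT animals for Ndufc2 (-2.55), Ndufv1 (-2.43), Slc25a46 (-3.96), Mrpl15 (-4.86), Nkiras2 (-5.01), Rbm7 (-5.04) and Zfp830 (-5.16). HF 8 lay below the other HF animals for Ndufc2 (3.76), Slc25a46 (0.96), Mrpl15 (-1.30), Nkiras2 (-1.55), Rbm7 (-1.58), Pdk1 (-1.73) and Gcat (-0.79). Why single probes fell on HFT 28 was not tested.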

How the results depend on the processing

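No named gene called apart changed its direction under any alternative run. List medians near 0 (smooth muscle, lymphocyte, endothelium, fibroblast, hepatocyte, ectopeptidases, androgen and glutathione genes) changed sign under some. The count of higher probes, 1100, was 584 with normexp background correction, 497 over probes well above background on all arrays, 705 at a difference of at least 2 and 2015 within HF alone; leaving out each array in turn gave 1097 to 1526. The count of lower probes, 36, was 15 with normexp, 108 scaled to the median, 134 with quantile normalization, 483 within HF alone, 119 within HFT alone and 7 at a difference of at least 2; leaving out each array gave 36 to 149, the highest without HFT 23. The duct marker median, 7.48, was 5.44 with normexp and 6.45 in the authors' deposited table, and 7.34 to 7.59 with an array left out. Its list includes Lcn5, which chose the arrays. The ciliated-cell median, 5.11, was 2.5 with normexp and 3.37 in that table, and 4.69 to 5.62 with an array left out. The adipocyte median, -0.59, was -0.76 scaled to the median, -0.40 with quantile normalization and -0.42 in that table, and -0.77 to -0.43 with an array left out. The cause of these shifts was not tested; the within-group and threshold counts differ by construction. HFT against HF called 0 probes in all fits, leave-one-out included (0 to 0), except 1 without the 3 Lcn5-high arrays. Without HF 9, an alternative chosen after seeing the data, the counts were 1255 and 46. Of the values for single named genes under alternatives, 2374 moved by less than the spread and 226 by more. These moves were uneven: of 100 named genes, 74 moved by more than the spread with normexp and 64 in the authors' deposited table. The sizes given for most named genes thus depend on the processing. No paired analysis was possible because the maternal groups share no replicate numbers. With 3 arrays on one side, only wide differences are distinguishable from the spread, and genes near background on the others have bounds in place of values.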
